A study of Mus musculus with 8 samples.

Results

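Of the 16133 genes in the authors' deposited table, 138 carried names of 3 classes of the ubiquitin system: 43 deubiquitinases named Usp, 33 ubiquitin-conjugating (E2) enzymes named Ube2, and 62 F-box proteins (32 Fbxo, 18 Fbxl and 12 Fbxw). They were chosen by the start of the gene symbol, with Usp18, Usp9y and pseudogene names left out. A symbol is not a function: Usp6nl encodes a Rab GTPase-activating protein and Ube2cbp an E3-like protein. Fbxl12os is a transcript named as opposite strand to Fbxl12, though the RefSeq spans of these 2 genes do not overlap. Livers came from METTL14f/f mice (WT) and METTL14Alb mice (KO), and every mouse, control mice included, had received intraperitoneal tunicamycin at 2 mg/kg for 24 hours. METTL14 belongs to the writer complex that adds N6-methyladenosine (m6A) to mRNA, and tunicamycin blocks N-linked glycosylation and causes stress of the endoplasmic reticulum (ER). The series calls the KO a liver knockout; the labels give the floxed allele and the name METTL14Alb, but not the Cre driver, age, sex or strain, and no untreated mice were analysed here. Polyadenylated RNA was sequenced as such (input) and after pulling down m6A-bearing fragments with an antibody (IP). Each genotype gave 2 input and 2 IP libraries. Whether these libraries came from separate mice is not stated, so the p-values cover only how these libraries vary, which may be technical.

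Ubiquitin is activated by an E1 enzyme, passed to an E2 enzyme and joined to a substrate with the help of an E3 ligase. F-box proteins are the exchangeable substrate receptors of SCF ligases, in which Skp1 links the F-box protein to the scaffold Cul1 and to the RING protein Rbx1 that holds the E2. Deubiquitinases such as the USP family remove or trim ubiquitin. In ER-associated degradation, misfolded proteins are passed out of the ER, ubiquitinated by membrane ligases such as HRD1 together with the E2 enzymes UBE2J1 and UBE2G2, and broken down by the proteasome.

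Input libraries held an estimated 12301649 to 16822478 reads each, of which 6699530 to 8332063 lay in the 15913 genes with recovered counts, and the rest was estimated from the deposited means of the other genes. Counts were recovered for 138 of 138 members. The letters A and B tell the libraries of a genotype apart (KO A, KO B and WT A, WT B), as which replicate number each has could not be determined. All values per library below are counts divided by the authors' size factors (normalized counts), and all fold changes are of KO over WT. The header does not state that direction. It was read from the peak lists. With a mean of at least 100 and a log2 value over 2 in the authors' deposited table there were 347 genes, and 156 of them carried peaks solely in the KO list and 0 solely in the WT list. For the 403 genes under -2 these numbers were 30 and 46. The mRNA of the targeted gene Mettl14 had normalized counts of 64.6 and 62.0 in KO and 79.8 and 99.7 in WT, and a log2 change of -0.50 ± 0.41 (SE) in the authors' deposited table (DESeq2, adjusted p = 0.342), so it did not pass the test. Marker lists differed between genotypes. By the authors' deposited table, the hepatocyte markers fell in 7 of 8 cases and rose in 1, and 5 of 6 bile duct cell markers, 5 of 6 stellate cell and fibroblast markers and 5 of 6 proliferation markers rose with 0 falls, and 2 of 5 macrophage markers rose with 1 fall. Summed normalized counts of the bile duct markers were 4247 and 3265 in KO and 647 and 792 in WT (Krt7 at 0 in WT B), and those of the stellate cell markers 6850 and 4384 in KO and 625 and 516 in WT. The macrophage sums were 3836 and 3978 in KO and 2583 and 1818 in WT. Of the hepatocyte markers only Hnf4a had recovered counts, 4182 and 4857 in KO and 12904 and 11673 in WT. In bulk tissue, fewer cells of a type and less RNA per cell cannot be told apart, and the part of these markers in the results below was not tested.

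Each of the 3 classes held both rises and falls. A total of 46 of 129 tested members had an adjusted p under 0.05 by the authors' deposited table (35.7%, beside 42.5% of all 14257 tested genes), with 20 higher in KO (15.5%, beside 20.4% of all) and 26 lower (20.2%, beside 22.2% of all). A share of called members near or below the background is no result about the classes. The E2 enzymes held 10 falls and 3 rises among 33 tested members, with a median log2 change of -0.28. The deubiquitinases held 3 falls and 8 rises among 43, with a median of 0.06. The F-box proteins held 13 falls and 9 rises among 53, with a median of 0.27, and the other 9 F-box genes, with mean counts under 10, had no adjusted p. Among the 53 were 8 genes that also had mean counts under 10. Their median was 1.33, with 0 rises and 1 fall called, so few reads bear on the F-box median. The median over all tested genes was 0.05. The 83 tested members that did not pass had values from -0.75 (Fbxo47) to 3.90 (Ube2t) in the authors' deposited table. Whether the classes differ from each other was not tested.

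**Figure D1:**
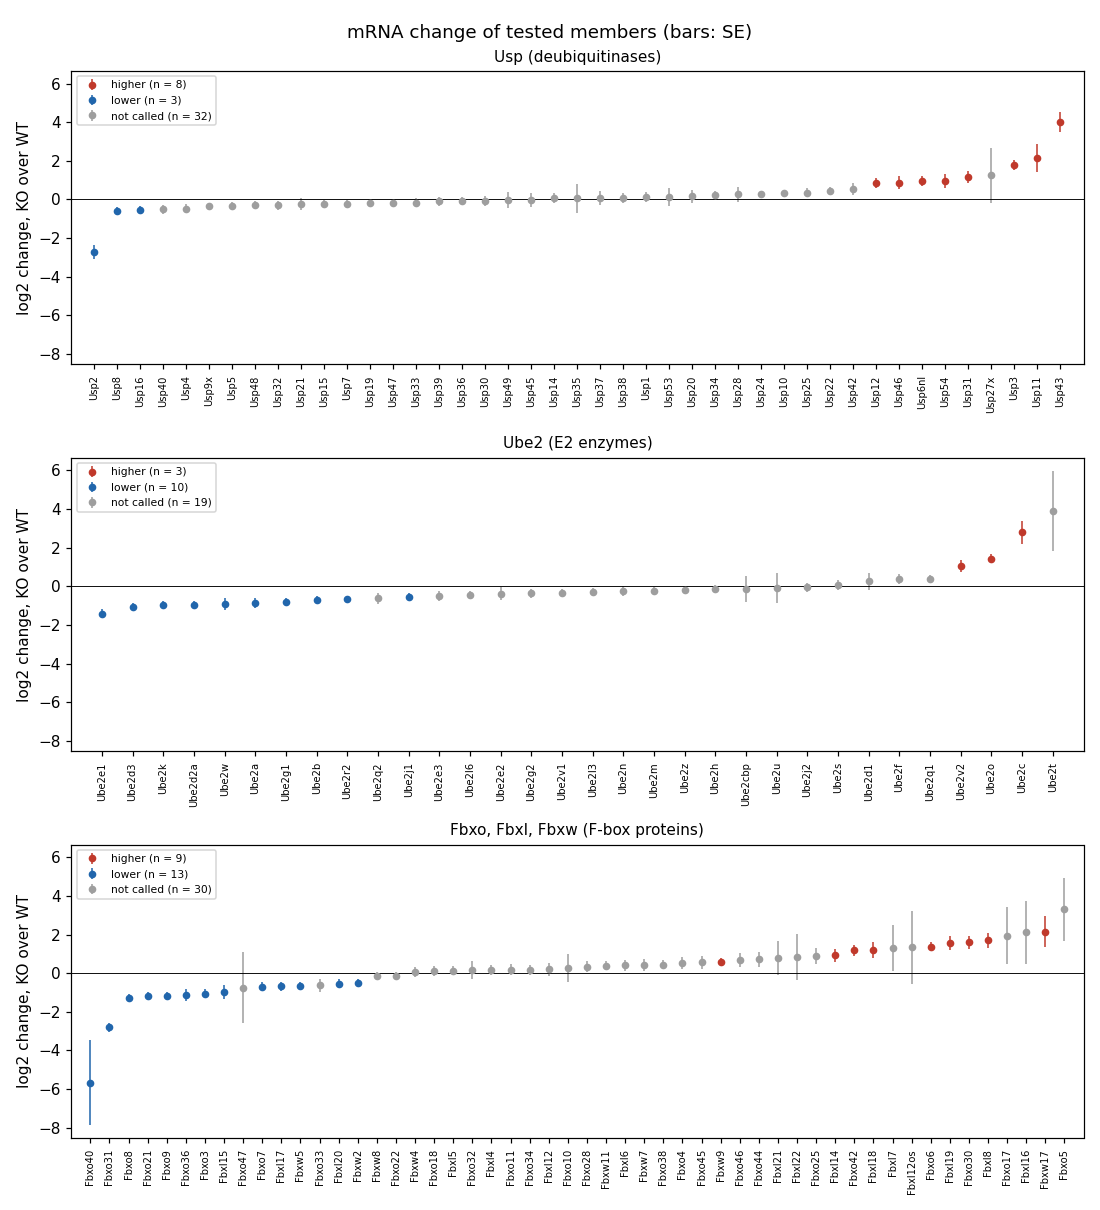
Log2 change of KO over WT in the authors' deposited table for tested members, in 3 panels (43 Usp, 32 of 33 Ube2 and 52 of 53 F-box genes) and ordered by value; bars are the SE, and colours mark rises (red), falls (blue) and members that did not pass the test (grey). Falls outnumber rises among Ube2 genes (10 and 3), and rises outnumber falls among Usp genes (8 and 3); the fitted value of Fbxo40, which had 0 counts in KO, is no measure of its size.

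These directions are relative to the authors' size factors. With libraries scaled to equal totals the median of all genes moved by 0.82 on the log2 scale, to 0.87. Of the 26 falls, 11 then had a value above 0. This scaling adds nearly the same amount to every gene, so it does not test where a gene lies relative to that median. The class medians relative to it were -0.32 for Ube2, 0.01 for Usp and 0.22 for F-box genes. Changes of 2-fold or more among these calls were 14 rises and 10 falls, beside 14.9% and 12.6% of all genes. At an adjusted p under 0.01 the rises and falls were 6 and 1 for Usp, 3 and 9 for Ube2 and 7 and 8 for F-box genes, beside 15.3% and 18.1% of all genes. The genotypes were fully separate in 92 of the 119 members with a mean of 10 or more (42 higher and 50 lower in KO), beside 78.9% of all such genes (39.9% higher and 39.0% lower). None of these 119 members differed by 2-fold or more between the KO libraries, and 6 did between the WT libraries. Of all 12627 such genes, 384 did between the KO libraries and 917 between the WT libraries. Removing Usp6nl, Ube2cbp and Fbxl12os left 7 rises and 3 falls of 42 Usp genes, 3 and 10 of 32 Ube2 genes, and 9 and 13 of 52 F-box genes.

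Among the E2 enzymes, the largest falls were those of Ube2e1, Ube2d3 and Ube2k. Ube2e1 (chromosome 14, 18282726 to 18332004; RefSeq positions here are on GRCm38.p6, the mm10 build), of the UBE2E family, had normalized counts of 212 and 188 in KO and 533 and 531 in WT. Both KO libraries lay below both WT libraries. On the log2 scale Ube2e1 fell by 1.41 ± 0.24 (SE) in the authors' deposited table (DESeq2, adjusted p = 4.83e-08). Ube2d3, of the UBE2D family of ubiquitin chain-starting enzymes, had 1004 and 1098 in KO and 2332 and 2101 in WT. It was again lower in both KO libraries, by 1.08 ± 0.19 in the authors' deposited table (DESeq2, adjusted p = 1.15e-07). Ube2k, which builds the chains that mark proteins for the proteasome, had 455 and 470 in KO and 826 and 971 in WT, a fall by 0.96 ± 0.21 in the authors' deposited table (DESeq2, adjusted p = 4.27e-05). The groups of Ube2k did not overlap either.

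Of the 6 UBE2D and UBE2E genes measured, 3 fell and 0 rose, beside 22.2% and 20.4% of all genes. This group was chosen with earlier results of these data known. The third, Ube2d2a, fell by 0.95 in the authors' deposited table, and the values that did not pass were -0.50 for Ube2e3, -0.38 for Ube2e2 and 0.25 for Ube2d1. UBE2D genes are close copies of each other, and the sources used here do not say how reads shared between them were counted, so values of single members are uncertain. Ube2a and Ube2b, the pair of homologues of yeast Rad6 that ubiquitinate histone H2B and PCNA with RAD18 or RNF20-type ligases, both fell, by 0.88 and 0.69 in the authors' deposited table (DESeq2, adjusted p = 0.00162 and 0.00236). The same authors' deposited table gave falls by 0.92 for Ube2w, which ubiquitinates the N-terminus of proteins, and by 0.67 for Ube2r2, a CDC34-like E2 of SCF ligases. Ube2e1 shares part of its span with Nkiras1, and neither the counting nor its strand setting is stated, so reads of overlapping genes may be mixed. The spans of 31 members overlap another gene of the table, and 11 of these members were called.

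The E2 enzymes of ER-associated degradation fell in part. Ube2g1 had normalized counts of 383 and 433 in KO and 675 and 746 in WT and fell by 0.80 ± 0.22 (SE) in the authors' deposited table (DESeq2, adjusted p = 0.00116). Ube2j1, anchored in the ER membrane, had 622 and 612 in KO and 810 and 991 in WT and fell by 0.54 ± 0.21 in the authors' deposited table (DESeq2, adjusted p = 0.0279). In both genes the KO libraries lay below the WT libraries. Ube2g2, the partner of HRD1 and gp78, had 645 and 779 in KO and 799 and 1044 in WT, with a log2 value of -0.37 in the authors' deposited table (DESeq2, adjusted p = 0.181). Ube2j2, also membrane-anchored, had 457 and 480 in KO and 478 and 493 in WT, with overlapping groups and a value of -0.05 in the authors' deposited table (DESeq2, adjusted p = 0.881). Thus 2 of these 4 passed the test, both lower, beside 22.2% of all genes called lower. The E2 enzymes of NEDD8 and ISG15 did not pass: the authors' deposited table gave -0.24 and 0.38 for the NEDD8 enzymes Ube2m and Ube2f, and -0.45 for the ISG15 enzyme Ube2l6 (DESeq2, adjusted p = 0.385, 0.232 and 0.0887).

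The E2 genes that rose were Ube2c, Ube2o and Ube2v2. Ube2o (chromosome 11, 116537740 to 116581503), a large enzyme that acts as E2 and E3 at once on unassembled proteins, had normalized counts of 767 and 772 in KO and 278 and 290 in WT. The groups lay far apart relative to the spread within each, and Ube2o rose by 1.44 ± 0.22 (SE) in the authors' deposited table (DESeq2, adjusted p = 9.66e-10). Ube2v2, the inactive partner of Ube2n in making chains used for signalling and DNA repair, had 230 and 250 in KO and 102 and 128 in WT. Ube2v2 rose by 1.06 ± 0.31 in the authors' deposited table (DESeq2, adjusted p = 0.00199). Its partner Ube2n and its relative Ube2v1 did not pass, at -0.24 and -0.35 in the authors' deposited table (DESeq2, adjusted p = 0.478 and 0.190).

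Ube2c, the E2 that starts chains for the anaphase-promoting complex (APC/C) in mitosis, had normalized counts of 68.5 and 73.1 in KO and 9.70 and 10.8 in WT. WT levels were low, from 9 and 8 reads, and both KO libraries lay above them. Ube2c rose by 2.79 ± 0.61 (SE) in the authors' deposited table (DESeq2, adjusted p = 2.96e-05). Ube2s, which extends the chains that Ube2c starts, had 255 and 221 in KO and 238 and 218 in WT, overlapping groups and a value of 0.06 in the authors' deposited table (DESeq2, adjusted p = 0.888). Ube2t, the E2 of Fanconi anaemia DNA repair, had 15.1 and 2.55 in KO and 1.08 and 0 in WT. Fbxo5, an F-box inhibitor of the APC/C also known as Emi1, had 13.6 and 9.35 in KO and 2.16 and 0 in WT. Neither Ube2t (3.90 ± 2.07) nor Fbxo5 (3.32 ± 1.63) passed in the authors' deposited table (DESeq2, adjusted p = 0.118 and 0.0887), and limma on the recovered counts called Fbxo5. Over the same libraries the 6 proliferation markers summed to 1208 and 811 normalized counts in KO and 77.6 and 52.5 in WT. Ccnb1 was at 0 in both WT libraries and Top2a in WT B, and the part of this in the values of Ube2c was not tested.

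For these 4 genes, which serve the cell cycle or DNA repair, the 250 bases before their RefSeq start are shown. Any link between these sequences and the mRNA values was not tested. Capitals mark CCAAT, the box bound by NF-Y, and TTTGAA, on either strand (ATTGG and TTCAAA as read on the other). TTTGAA is a form of the core of the element called CHR that holds many mitotic genes silent in resting cells.
Ube2c (chr2:164769679-164769928, plus strand): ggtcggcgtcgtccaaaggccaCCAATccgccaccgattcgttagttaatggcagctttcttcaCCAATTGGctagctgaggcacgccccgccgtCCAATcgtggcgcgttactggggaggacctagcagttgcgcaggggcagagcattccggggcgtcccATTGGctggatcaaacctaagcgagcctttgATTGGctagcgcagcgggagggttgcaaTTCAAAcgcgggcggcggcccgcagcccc
Ube2t (chr1:134962315-134962564, plus strand): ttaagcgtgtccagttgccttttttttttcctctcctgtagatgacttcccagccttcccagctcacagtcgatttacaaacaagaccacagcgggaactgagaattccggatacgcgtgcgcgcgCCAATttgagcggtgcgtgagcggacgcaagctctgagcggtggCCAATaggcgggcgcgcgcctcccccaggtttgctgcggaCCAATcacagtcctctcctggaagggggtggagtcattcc
Fbxo5 (chr10:5805466-5805715, minus strand): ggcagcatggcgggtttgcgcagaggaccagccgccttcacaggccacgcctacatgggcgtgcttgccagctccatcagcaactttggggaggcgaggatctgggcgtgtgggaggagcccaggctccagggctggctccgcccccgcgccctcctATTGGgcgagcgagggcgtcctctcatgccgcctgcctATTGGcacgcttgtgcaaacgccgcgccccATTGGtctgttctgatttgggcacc
Ube2s (chr7:4812341-4812590, minus strand): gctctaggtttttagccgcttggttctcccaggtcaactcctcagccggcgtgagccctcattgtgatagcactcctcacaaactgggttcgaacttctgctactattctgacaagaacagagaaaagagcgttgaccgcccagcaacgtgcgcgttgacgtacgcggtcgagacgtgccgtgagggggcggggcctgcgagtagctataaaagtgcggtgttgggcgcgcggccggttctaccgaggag
The window of Ube2c held 6 CCAAT letters on both strands together, of which 1 pair shares bases, and 1 TTTGAA located 29 bases before the start. Ube2t and Fbxo5 held 3 CCAAT each and Ube2s held 0, and none of these 3 windows held TTTGAA. Other forms of the CHR core were not searched, so these counts do not show which windows lack the element. Of 32851 RefSeq promoters of this length 33.8% held CCAAT, 16.0% held TTTGAA and 5.55% both. A total of 105 members had a promoter in that table, of which 25 held CCAAT, 11 held TTTGAA and 4 both (Ube2c, Ube2f, Fbxo9 and Fbxo48). A match is a run of letters only and not a shown binding site.

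**Figure D2:**
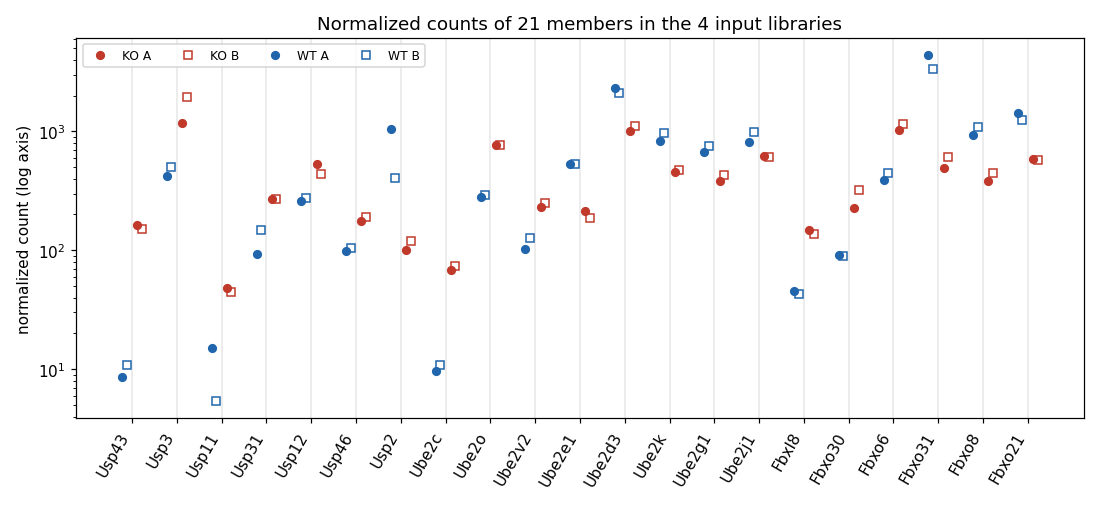
Normalized counts (log axis) of 21 members in the 4 input libraries, KO in red and WT in blue, library A as filled circles and library B as open squares. In each of these members both KO libraries lie on the same side of both WT libraries, and the gap between libraries of 1 genotype is widest for Usp2 and Usp11 in WT.

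F-box proteins moved in both directions, and Fbxo31 had the fall with the smallest p among all members. Fbxo31 (chromosome 8, 121549443 to 121578864), the receptor of an SCF ligase that targets cyclin D1 after DNA damage, had normalized counts of 489 and 613 in KO and 4369 and 3346 in WT. Both KO libraries lay far below both WT libraries. On a log2 scale Fbxo31 fell by 2.81 ± 0.21 (SE) in the authors' deposited table (DESeq2, adjusted p = 1.21e-37). Fbxo8, an F-box protein with a Sec7 domain, had 382 and 446 in KO and 927 and 1080 in WT. Fbxo8 fell by 1.28 ± 0.22 in the authors' deposited table (DESeq2, adjusted p = 4.11e-08). Fbxo21, a receptor of an SCF ligase, had 589 and 574 in KO and 1437 and 1235 in WT and fell by 1.20 ± 0.20 in the authors' deposited table (DESeq2, adjusted p = 2.99e-08). In both genes the genotypes were separate.

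Further F-box genes fell. The authors' deposited table gave log2 values of -1.17 for Fbxo9, -1.13 for Fbxo36, -1.07 for Fbxo3, -0.98 for Fbxl15, -0.70 for Fbxo7, -0.68 for Fbxl17, -0.65 for Fbxw5, -0.54 for Fbxl20 and -0.49 for Fbxw2. Fbxo7 binds Parkin in mitophagy, Fbxo9 has been linked to mTOR signalling, and Fbxl15 targets the Smurf ligases of BMP signalling. Fbxo36 lies within the span of Trip12, whose mean count was 1924 beside 225 for Fbxo36, Fbxl15 overlaps Cuedc2, with a mean count of 240.5 beside 108 for Fbxl15, and Fbxw5 overlaps C8g, so these values may hold reads of the neighbour. Fbxo40, a receptor known from muscle, had 0 in both KO libraries and 8.63 and 6.73 in WT, at least 6.22-fold lower with a floor of 3 counts over the KO group (DESeq2 in the authors' deposited table, adjusted p = 0.0253). Without WT A, limma gave Fbxo40 an adjusted p of 0.0535.

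Rises among F-box genes included the glycoprotein receptor Fbxo6. Fbxo6, which binds the high-mannose glycans of misfolded glycoproteins returned from the ER, had normalized counts of 1016 and 1143 in KO and 387 and 443 in WT. Both KO libraries were higher, and Fbxo6 rose by 1.38 ± 0.21 (SE) in the authors' deposited table (DESeq2, adjusted p = 1.24e-09). Its relatives were scarce or did not pass. Fbxo44 had 95.6 and 140 in KO and 77.6 and 64.6 in WT, with a value of 0.73 in the authors' deposited table (DESeq2, adjusted p = 0.131). Fbxo17 had 11.2 and 6.80 in KO and 3.24 and 1.35 in WT, and Fbxo2 and Fbxo27 had at most 3.24 in any library and no adjusted p. So 1 of the 3 tested members of this family rose, beside 20.4% of all genes.

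Fbxo30 had normalized counts of 226 and 322 in KO and 90.6 and 90.2 in WT and rose by 1.60 ± 0.32 (SE) in the authors' deposited table (DESeq2, adjusted p = 4.44e-06). Its protein, also called MUSA1, is known from muscle atrophy. Fbxl19, which binds unmethylated CpG islands, had 181 and 137 in KO and 52.8 and 55.2 in WT and rose by 1.56 ± 0.38 in the authors' deposited table (DESeq2, adjusted p = 1.91e-04). Neither gene overlapped between genotypes. The remaining rises in the authors' deposited table were 2.16 for Fbxw17, 1.70 for Fbxl8, 1.22 for Fbxl18, 0.93 for Fbxl14 and 0.60 for Fbxw9, and Fbxo42 rose from 173 and 237 in WT to 420.0 and 505 in KO. Fbxw17 rested on few reads, with 28.7 and 37.4 in KO and 4.31 and 10.8 in WT. Fbxl14 overlaps Wnt5b, with a mean count of 110 beside 167 for Fbxl14, so its value may hold reads of that neighbour.

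Some F-box proteins with well-known substrates did not pass the test. Fbxw7, the receptor of cyclin E, MYC and Notch, had normalized counts of 182 and 204 in KO and 120 and 166 in WT, and a value of 0.44 in the authors' deposited table (DESeq2, adjusted p = 0.272). Fbxl5, which senses iron and targets IRP2, had 374 and 428 in KO and 401 and 331 in WT. Values of Fbxl5 (0.13) and the muscle atrophy gene Fbxo32 (0.15) in the authors' deposited table had adjusted p from DESeq2 of 0.715 and 0.835, with overlapping genotypes in each.

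Among deubiquitinases, 1 large fall stood beside several rises. Usp2 (chromosome 9, 44067021 to 44095627), a deubiquitinase whose liver mRNA follows the day and the feeding cycle, had normalized counts of 99.6 and 120 in KO and 1053 and 401 in WT. The WT libraries differed by more than 2-fold, yet both lay above the KO libraries. Usp2 was 6.64-fold lower, a log2 change of -2.73 ± 0.36 (SE) in the authors' deposited table (DESeq2, adjusted p = 5.36e-13). By limma the log2 change of Usp2 was -2.56, and it was -1.87 without WT A and -3.26 without WT B. The time of day of tissue collection is not in the labels. The other falls were of Usp8, which sorts receptors at endosomes, and Usp16, which acts on histone H2A. Usp8 had 645 and 561 in KO and 815 and 1009 in WT, and Usp16 had 626 and 572 in KO and 873 and 847 in WT. They fell by 0.60 and 0.52 in the authors' deposited table (DESeq2, adjusted p = 0.0179 and 0.0292), and neither had an adjusted p under 0.01. Usp16 overlaps Cct8.

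Usp3 led the rises among deubiquitinases with a mean of at least 100. Usp3 (chromosome 9, 66514639 to 66593148), which removes ubiquitin from histones H2A and H2B, had normalized counts of 1168 and 1941 in KO and 417 and 497 in WT. Both KO libraries were above WT, with a wider gap between the KO libraries, and Usp3 rose by 1.77 ± 0.26 (SE) in the authors' deposited table (DESeq2, adjusted p = 7.28e-11). Usp31 had 270 and 268 in KO and 93.8 and 148 in WT and rose by 1.16 ± 0.32 in the authors' deposited table (DESeq2, adjusted p = 9.76e-04). Usp54 had 155 and 162 in KO and 85.2 and 76.8 in WT and rose by 0.96 ± 0.35 in the authors' deposited table (DESeq2, adjusted p = 0.0153). Neither Usp31 nor Usp54 overlapped between genotypes.

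Below that mean the called rises were those of Usp43 and Usp11, and both were larger. Usp43 (chromosome 11, 67854523 to 67922153), named here after its values were seen, had normalized counts of 162 and 152 in KO and 8.63 and 10.8 in WT. Its WT level rested on 8 reads in each library, and Usp43 rose 16.3-fold, a log2 change of 4.03 ± 0.52 (SE) in the authors' deposited table (DESeq2, adjusted p = 1.80e-13). Usp11, seen in the same way, had 48.6 and 44.2 in KO and 15.1 and 5.39 in WT and rose by 2.15 ± 0.71 in the authors' deposited table (DESeq2, adjusted p = 0.00791). The limma value of Usp11 was 2.22, and it was 2.89 without WT A and 1.56 without WT B. Usp12 and Usp46, close relatives that are switched on by the WD-repeat protein WDR48, rose by 0.84 and 0.87 in the authors' deposited table (DESeq2, adjusted p = 0.00224 and 0.0198). Usp12 had 532 and 434 in KO and 262 and 276 in WT, and Usp46 had 178 and 192 in KO and 99.2 and 104 in WT. Usp1, the third deubiquitinase that WDR48 activates, had 326 and 320 in KO and 286 and 304 in WT and a value of 0.13 (DESeq2 in the authors' deposited table, adjusted p = 0.717).

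Deubiquitinases of the ER and the proteasome did not pass. Usp19, anchored in the ER membrane, had normalized counts of 1297 and 1298 in KO and 1501 and 1445 in WT. Usp14, which trims chains at the proteasome, had 299 and 334 in KO and 278 and 331 in WT. Usp25 had 439 and 463 in KO and 377 and 333 in WT. Their log2 values in the authors' deposited table were -0.18, 0.06 and 0.34 (DESeq2, adjusted p = 0.460, 0.887 and 0.241).

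In the rest of the pathway, taken from lists by name, falls outnumbered rises when the authors' size factors were used. Of 88 tested genes 12 rose and 29 fell, beside 20.4% and 22.2% of all genes, with a median of -0.23. Of genes that encode ubiquitin, Ubb fell by 1.08 and Rps27a by 0.48 in the authors' deposited table. Among 9 E1 genes 3 fell and 1 rose, and the exception was Uba6 at 1.22 in the authors' deposited table. The SCF core and cullin regulators held 14 falls and 3 rises of 27, with a median of -0.48. Skp1a, the adaptor that every SCF F-box protein binds, had normalized counts of 1047 and 1036 in KO and 2233 and 2350 in WT and fell by 1.14 ± 0.18 (SE) in the authors' deposited table (DESeq2, adjusted p = 6.84e-09).

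Rbx1 and Nedd8, the RING subunit and the modifier that activates cullins, fell by 0.91 and 0.99 in the authors' deposited table. Of the 9 genes of the COP9 signalosome, which removes NEDD8 from cullins, 7 fell and 0 rose, beside 22.2% and 20.4% of all genes. The lowest value in this group was that of Cops6, at -1.26 in the authors' deposited table. Rises were found for the scaffold Cul7 (1.48), the exchange factor Cand2 (2.56) and Dcun1d3 (0.78) in the authors' deposited table. Among 35 deubiquitinases and related proteases of other families 6 rose and 6 fell, with Otud1 at 2.95 and Brcc3 at -1.05 in the authors' deposited table as the ends of the range. Of F-box genes with other names, Ccnf fell by 2.17 and Kdm2b rose by 1.53 in the authors' deposited table, among 6 tested. Of 7 E2-like genes with other names, the SCF enzyme Cdc34 rose by 0.76, and Atg3 of autophagy and Ufc1, the E2 of UFM1, fell by 1.19 and 1.05 in the authors' deposited table. These named genes outside the classes were picked after their values were seen, apart from their lists. With libraries scaled to equal totals 54 of these genes were called higher and 4 lower, beside 58.6% and 7.55% of all genes.

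**Figure D3:**
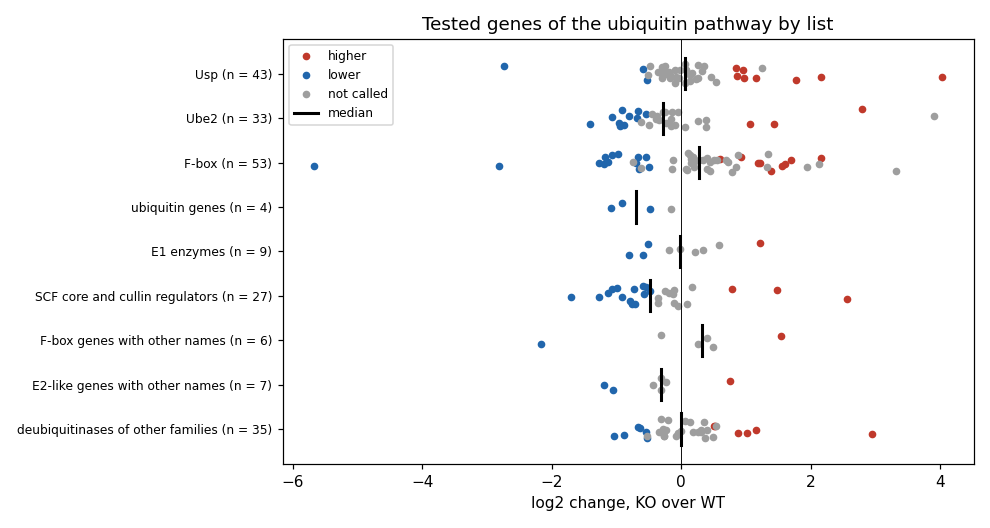
Log2 change of KO over WT in the authors' deposited table for the tested genes of the 3 classes and of 6 further lists of the ubiquitin pathway; each point is a gene, colours mark rises, falls and genes that did not pass, and the black bar is the list's median. Points of the SCF core list lie mostly below 0 (median -0.48), and those of the Usp list centre near 0 (median 0.06).

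The m6A peak lists hold 1 set of peaks per genotype, so a difference between them has no replicate error. The enrichment of a peak is the authors' own value for it and is used here within a list only. The WT list held 41 peaks in 29 members and the KO list 121 peaks in 60 members. A total of 25 members had a peak in both lists, 4 in the WT list alone, 35 in the KO list alone and 74 in neither. Among the 101 members with a mean of at least 100, 28.7% had a WT peak and 58.4% a KO peak, beside 32.4% and 62.2% of all genes of that level (18.5% and 36.3% without the level). These shares lie near those of all genes. By class, a WT peak was found in 10 of 36 Usp, 8 of 28 Ube2 and 11 of 37 F-box genes of that level, and a KO peak in 24, 17 and 18 of them.

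**Figure D4:**
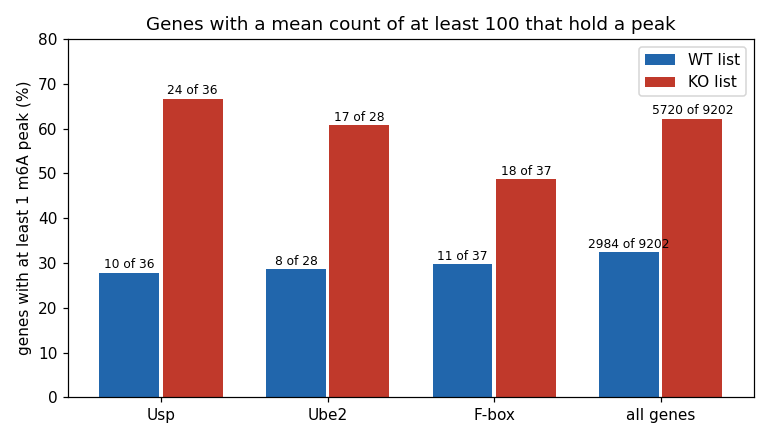
Share of genes, of those whose mean count is 100 or more, that hold at least 1 peak in the WT list (blue) and the KO list (red), for the 3 classes and all genes of that level, with the numbers above the bars. The WT shares of the 3 classes lie close to each other (10 of 36, 8 of 28 and 11 of 37), and the KO share is lowest for F-box genes (18 of 37).

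Many WT peaks of the members recurred in the KO list. Overlap by at least 1 base was found for 13 of 17 Usp, 8 of 10 Ube2 and 5 of 14 F-box peaks of the WT list, beside 72.6% of all WT peaks. The difference between classes was not tested, and peaks of 1 gene are not independent. The highest WT enrichment among members was in Usp16, where a peak at chr16:87479349-87479447 had a value of 547 (85.6% of the way along the gene's span), and an overlapping KO peak had 17.5 within its own list. The next members in the WT list were Ube2d3 at chr3:135438760-135439686 (471), Ube2h at chr6:30304441-30304489 (454) and Usp39 at chr6:72345028-72345076 (386), each with an overlapping peak in the KO list. In Ube2h and Usp39 these lay at the very start of the gene's span. Of F-box genes, Fbxo38 (186) and Fbxo9 (177) had the highest WT values, and both positions recurred in the KO list. The mRNA of Usp39 (-0.10), Ube2h (-0.16) and Fbxo38 (0.45) did not pass in the authors' deposited table.

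In the KO list high values were found for Usp31 (206, chr7:121648571-121648619) and Usp24 (99.1), Ube2h (177) and Ube2g1 (71.6), and Fbxo11 (242, chr17:87991801-87991948). Fbxo11, Usp31 and Usp24 had no WT peak. Fbxo11 is the receptor for BCL6 and Usp24 a very large deubiquitinase. Usp36, a nucleolar deubiquitinase, had 6 peaks in the KO list and 1 in the WT list, while Usp10, which acts on p53, had 4 in the WT list and 1 long one in the KO list (chr8:119941394-119941989) that overlaps 3 of those 4. A count of peaks therefore depends on how the regions were split. Over all members the median enrichment was 62.2 in the WT list (24.2 for all WT peaks) and 19.6 in the KO list (13.1 for all KO peaks). Near the end of the gene's span, in its last 10%, lay 39.0% of the members' WT peaks (30.5% of all) and 28.9% of their KO peaks (32.1% of all).

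The members with peaks in the WT list alone were Usp2, Fbxo3, Fbxl15 and Fbxo34. Usp2 had one at chr9:44085007-44085055 (enrichment 78.0) and one at chr9:44094034-44094082 (51.8). The first begins 87 bases after an annotated RefSeq start inside the gene, at position 44084920. Fbxo3 had a peak at chr2:104027850-104027898 (110) and Fbxl15 at chr19:46330298-46330346 (70.2), and Fbxo34 had a pair in the last part of its span. Usp2, Fbxo3 and Fbxl15 also fell in mRNA, while Fbxo34 had a value of 0.19 in the authors' deposited table (DESeq2, adjusted p = 0.594). The direction of these changes was itself read from the peak lists, so the pairing of lost peaks with falls is not independent of it. A peak needs reads, and whether the lower mRNA in KO bears on the missing peaks was not tested.

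Members with a WT peak fell more often than rose, as did other genes with one. The direction of change was itself read from the peak lists, so this link is not independent of that reading. Of 29 members with a WT peak and a mean of at least 100, 12 were lower and 2 higher, with a median of -0.35 (all 2984 such genes: 51.4% lower, 10.2% higher, median -0.54). The pair that rose was Ube2o and Fbxw9. Of 34 members with a peak in the KO list alone 7 rose and 6 fell (all such genes: 29.5% higher, 20.5% lower), and of 38 with no peak 5 rose and 7 fell (all such genes: 22.5% higher, 23.0% lower). Members with a WT peak were also more abundant, with a median mean count of 756 beside 398 and 252 in the other groups, and the part of abundance was not tested. Fbxo31 and Ube2k were among the falls with no peak in either list, and the rising genes Usp43 and Ube2c, with means under 100, had none either.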

How the data were processed

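Liver polyadenylated RNA of WT and KO mice was sequenced as input and m6A-IP libraries, 2 per group. HISAT2 2.1.0, the mm10 build and DESeq2 1.18.1, used by the authors, are named in the submitters' processing notes; read counter, annotation and peak caller: not given in the sources used here. In the authors' deposited table the mean is a signal (mean of counts over size factors), the change and its SE are log2 values, the test value is a score (Wald statistic), and p-values are raw and adjusted. Enrichment in the deposited peak lists is read as a ratio, and their score column as a p-value.

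Whole counts for each input library were worked out from the deposited means' digits (98.6% of genes; 181 with means above 10000 were not searched, 39 were not found). For 119 members with means above 15, refitted changes differed by at most 3.49e-06 on the log2 scale. On simulated data 793 of 794 genes were found, all 793 correctly. Calls are the authors' adjusted p under 0.05. As an alternative limma 3.58.1 was fitted to log2(normalized count + 1). Simulated data of 14037 genes held 100 genes with a log2 change of 1, 100 with 2 and 13837 unchanged. Limma called 50%, 97% and 0.0578% of these. In the real data it called 3539 genes higher and 3373 lower. The adjusted p depends on the share of changed genes, so the simulated rates are no measure of missed or false calls in the real data.

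Genes were named by rule: per class the 3 largest rises and 3 largest falls called with a mean of at least 100; the ER, cell cycle, ubiquitin-like and well-known members; the 2 highest enrichments per class and list; and members with WT peaks alone. Members, lists and role groups were chosen with earlier results of these data known, and others are named after their values were seen. Some genes are counted but not reported here by name. RefSeq (GRCm38.p6) gave positions and promoters.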

Additional observations from a re-analysis of the deposited data

How the results depend on the processing

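No paired analysis was possible because the table's columns carry no replicate number. Of the 46 called members, 46 kept sign and call in limma with a pseudocount of 1 or 0.5, and 46 kept sign when each library was left out. Without WT A 45 stayed called and without WT B 46; without either KO library limma called 0 of all 14037 genes, its spread then coming from the WT pair alone and the lone KO library being assumed to vary alike. Leaving out 1 library thus gave 0 to 11 rises and 0 to 5 falls for Usp, 0 to 5 and 0 to 15 for Ube2, 0 to 16 and 0 to 13 for F-box, and 0 to 16 and 0 to 31 for the other pathway genes, with medians of -0.023 to 0.14, -0.37 to -0.24 and 0.23 to 0.41 for the 3 classes. Each of these fits had 1 library in a group, so their numbers of calls are no result about the classes or the other pathway genes. The median over all genes was 0.046 to 0.072 in the same fits. At an adjusted p under 0.01 there were 1 Usp fall, 8 F-box falls and 7 rises of other pathway genes (every alternative for these other genes was chosen after seeing the data). Of all genes, 18.1% fell and 15.3% rose at that level. Limma gave 13 rises among 53 F-box genes with a pseudocount of 1 and 14 with 0.5, beside 25.2% and 24.8% of all genes. The cause of the difference from the authors' deposited table was not tested. Scaled to equal totals, limma called 36 Usp rises and 1 fall (median 0.88), 17 Ube2 rises and 1 fall (0.54), 35 F-box rises and 4 falls (1.09), and 54 rises and 4 falls of other pathway genes, beside 58.6% and 7.55% of all genes. Values above 0 then replaced those below 0 for Fbxl17 (0.14), Fbxl20 (0.28), Fbxo7 (0.12), Fbxw2 (0.31), Fbxw5 (0.17), Ube2b (0.14), Ube2cbp (0.74), Ube2e2 (0.43), Ube2e3 (0.31), Ube2g1 (0.0195), Ube2g2 (0.45), Ube2h (0.67), Ube2j1 (0.28), Ube2j2 (0.77), Ube2l6 (0.39), Ube2m (0.59), Ube2n (0.58), Ube2r2 (0.15), Ube2v1 (0.47), Usp16 (0.30), Usp19 (0.64), Usp36 (0.73), Usp39 (0.71) and Usp8 (0.23), beside a median of 0.87 over all genes. Only members named in the text, called or not, are listed here, and further members turned in the same way. The numbers of members with peaks moved by less than 1.5 times at an enrichment of at least 4 or a mean of at least 100, as did the number of shared peaks at a stricter overlap. Depth limits members with few reads, among them Ube2t, Fbxo5, Fbxo17 and Fbxl16, whose SE exceeded 1.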
